A study of Mus musculus with 2 samples.

Results

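Most microRNAs are cut out of a long primary transcript by Drosha and its partner Dgcr8 and are then trimmed by Dicer. A few precursors reach Dicer without Drosha. Mirtrons are short introns whose ends are set by splicing, after which the opened lariat folds into a hairpin. Other precursors begin at a transcription start site, so that their 5′ end is made by RNA polymerase II, and the mouse Mir320 precursor carries a cap and is exported by Exportin-1. Such microRNAs persist in mouse embryonic stem cells without Dgcr8 and are lost from those without Dicer.

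The 5 genes described here were chosen by name from this knowledge, with earlier results of these data also known. They are the mirtrons Mir877, Mir1224 and Mir702 and the transcription-start precursors Mir320 and Mir484, out of 2202 microRNA genes with counts. All 5 were measured in tissue labelled layer of hippocampus, from B6CASTF1/J female mice at 10 days of age, which are first-generation hybrids of C57BL/6J and CAST. Which layer, or whether the whole hippocampus was taken, is not given in the labels. The 2 libraries are biological replicates of a single group, made from different sets of 3 females per the labels, which give both the same donor entry. Nothing else in the labels shows how separate the sets were, so the SD of 2 libraries may hold animal, dissection and technical spread. No library came from a Drosha or Dgcr8 mutant, so dependence on Drosha was not measured, and no comparison of conditions was possible. Values are the mean ± SD of the 2 libraries in counts per 1000000 sense-strand counts on microRNA genes (CPM), and all 5 genes passed the detection minimum of 10 counts in each library, which 19.5% of all microRNA genes passed.

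The libraries held 5479267 and 3563226 sense counts in replicates 1 and 2. Neuronal marker microRNAs (Mir132, both Mir128 copies, Mir137 and Mir138-1) were all detected and summed to 25485 and 27237 CPM in replicates 1 and 2. Choroid plexus markers summed to 4881 and 4705 CPM, and red blood cell markers to 55.5 and 64.3 CPM. Liver-specific Mir122 stood at 34.7 and 34.2 CPM. Oligodendrocyte markers summed to 1543 and 2024 CPM, and Mir126a of endothelium stood at 8303 and 7986 CPM. The 5 muscle markers summed to 41.4 and 99.9 CPM in replicates 1 and 2. Of these 1 was detected, Mir206, and Mir1a-1, Mir1a-2 and Mir133a-1, whose reads can match several copies and then go uncounted, had no count. The same loss can lower other markers with a second copy, such as the Mir128 genes. The sums cover unlike numbers of markers, so they do not rank the cell types. In bulk tissue, fewer cells that make a microRNA and less of it per cell cannot be told apart.

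The annotated precursors of Mir877 and Mir1224 each filled an intron from its first base to its last. Mir877 (ENSMUSG00000077931.1, chr17:35960730-35960814, minus strand, mm10) is an 85-nt intron of Abcf1, which encodes a factor in translation initiation. Mir1224 (ENSMUSG00000080669.1, chr16:20604452-20604536, plus strand) is an 85-nt intron of Vwa5b2. Mir702 (ENSMUSG00000076240.1, chr5:136991433-136991541, plus strand) lies on a 102-nt intron of Plod3, which encodes a lysyl hydroxylase of collagen. Its annotated precursor began 9 nt before the intron, in the upstream exon, and stopped 2 nt before the intron's end. The RefSeq hairpins are shown because the splice sites mark the ends of a mirtron. Capitals mark the first 2 bases of the intron and, where the hairpin reaches them, the last 2.
Mir877 hairpin: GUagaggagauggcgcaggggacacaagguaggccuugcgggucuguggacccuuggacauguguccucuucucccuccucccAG
Mir1224 hairpin: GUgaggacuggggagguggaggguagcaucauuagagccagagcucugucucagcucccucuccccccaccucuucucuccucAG
Mir702 hairpin: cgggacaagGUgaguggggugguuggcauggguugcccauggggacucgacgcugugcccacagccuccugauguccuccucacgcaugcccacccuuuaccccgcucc

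The mature forms showed the same splice-site anchoring, also for Mir702. In all 3 mirtrons the 5p form began at the first base of the intron, which is the splice donor. The 3p form ended at the last base of the intron for Mir1224, 1 nt before it for Mir877 and 2 nt before it for Mir702. The mature forms are shown with the seed, bases 2 to 8, which selects targets, in capitals. RefSeq (GRCm38.p6) gave 7 mature forms for 4 of the 5 genes, and Mir320 is named only.
miR-877-5p: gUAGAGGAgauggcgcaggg
miR-877-3p: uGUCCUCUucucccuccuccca
miR-1224-5p: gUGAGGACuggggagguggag
miR-1224-3p: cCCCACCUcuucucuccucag
miR-702-5p: gUGAGUGGggugguuggcaug
miR-702-3p: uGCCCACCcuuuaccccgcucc
miR-484: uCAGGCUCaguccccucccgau

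**Figure D1:**
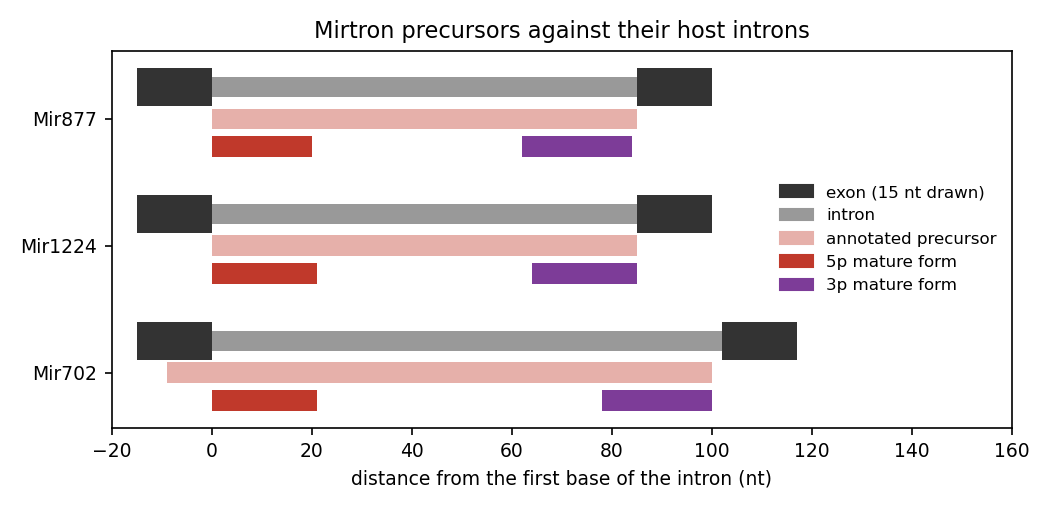
Host intron, annotated precursor and mature forms of the 3 mirtrons, drawn to scale against the distance from the first base of the intron in nt; dark blocks are 15 nt of each flanking exon. The Mir877 and Mir1224 precursors span the whole 85-nt intron, and the Mir702 precursor starts 9 nt before its 102-nt intron, while all 3 of the 5p forms start at the first intron base.

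The 7 seeds differed from one another. A single other gene of the RefSeq table carried any of them, since miR-702-5p shares UGAGUGG with miR-3102-5p. Mir3102 also fills an intron of its host, Arhgef17. Mir702 averaged 285 ± 41.0 CPM, and Mir3102 averaged 318 ± 8.39 CPM (SD, n = 2 each). The ranges overlapped, with 256 and 314 CPM for Mir702 in replicates 1 and 2, against 324 and 312 CPM for Mir3102. The mature form of Mir3102 is shown for comparison with that of Mir702.
miR-3102-5p: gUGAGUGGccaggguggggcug

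The 5p forms of the mirtrons were rich in purines and the 3p forms in pyrimidines. Pyrimidines made up 20.0% of miR-877-5p, 19.0% of miR-1224-5p and 33.3% of miR-702-5p. The 3p forms held 90.9%, 85.7% and 81.8% pyrimidines in Mir877, Mir1224 and Mir702. Among 347 mature 5p forms of detected genes that are not mirtrons by position the median was 47.8%, and among 349 such 3p forms it was 57.1%. Mir702 is counted among these genes by the rule given below. Detected mirtrons by position, which include Mir877 and Mir1224, shared the skew, with medians of 27.9% over 12 5p forms and 73.9% over 12 3p forms. A pyrimidine-rich stretch before the 3′ splice site is a general feature of introns. miR-484, a 5p form that is not tied to a splice site, held 68.2% pyrimidines. The hairpins of the 4 genes were GC-rich, at 61.2% for Mir877, 60.0% for Mir1224, 65.1% for Mir702 and 58.2% for Mir484, beside a median of 51.9% over 365 detected hairpins. The median of the 9 hairpins of detected mirtrons by position was 61.2%.

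**Figure D2:**
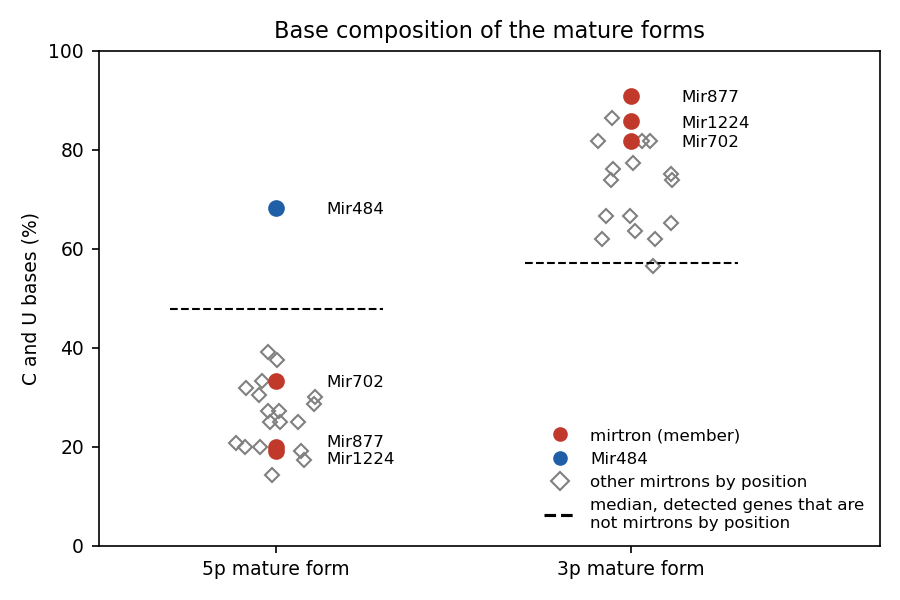
Share of C and U bases in each mature form, in percent, for 5p and 3p forms; filled points are the members, open diamonds the other mirtrons by position, and dashed lines the medians of detected genes that are not mirtrons by position, 47.8% and 57.1%. The member mirtrons lie at 19.0% to 33.3% on the 5p side and 81.8% to 90.9% on the 3p side, and Mir484 stands at 68.2%.

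The transcription-start genes lie outside annotated host transcripts on their own strand. Mir320 (ENSMUSG00000065528.1, chr14:70443510-70443591, plus strand) sits 63 nt from the nearest start of Polr3d, a subunit of RNA polymerase III, which runs the other way. Mir484 (ENSMUSG00000070074.1, chr16:14159626-14159692, plus strand) sits 359 nt from the nearest start of Marf1, an RNA-binding regulator of messenger stability, and overlaps that gene on the opposite strand. Leaving microRNA transcripts aside, GENCODE M21 has no transcript start within 2000 nt on the strand of Mir320 or Mir484, so the label of these 2 genes could not be checked against the annotation. The Mir484 hairpin is shown with the mature form in capitals, which begins at base 5, near the 5′ end of the precursor.
Mir484 hairpin: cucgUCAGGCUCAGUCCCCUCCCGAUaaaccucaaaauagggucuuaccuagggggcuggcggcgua

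RNAfold gave predicted folding energies of -36.5 kcal/mol for Mir877, -42.8 for Mir1224, -47.4 for Mir702 and -24.6 for Mir484, beside a median of -35.1 over detected hairpins. Per nucleotide, Mir1224 was the most stable of the 4 at -0.50 and Mir484 the least at -0.37, and the median was -0.43. The longest stretch that any of these hairpins shares with another microRNA gene, on either strand, was 13 nt, and no mature form occurs in another microRNA gene. Full-length reads of these mature forms thus have no exact match in another microRNA gene. Copies with mismatches and matches elsewhere in the genome were not searched, and Mir320 was not part of the search.

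The transcription-start genes were the more abundant members. Mir484 had 12158 and 8513 counts in replicates 1 and 2, or 2219 and 2389 CPM, a mean of 2304 ± 120 (SD, n = 2). Mir320 had 14540 and 5474 counts, or 2654 and 1536 CPM, a mean of 2095 ± 790. Mir320 was the higher of the pair in replicate 1 and Mir484 in replicate 2, so their order was not resolved. Within libraries, Mir484 over Mir320 was 0.836 in replicate 1 and 1.56 in replicate 2.

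The mirtrons stood several-fold lower, with Mir877 first. Mir877 had 3229 and 1811 counts, or 589 and 508 CPM, a mean of 549 ± 57.3 (SD, n = 2). Mir1224 had 1689 and 1317 counts, or 308 and 370 CPM, a mean of 339 ± 43.4. Mir1224 lay below Mir877 in both libraries, and their ranges did not overlap. Mir702 had 1403 and 1119 counts, or 256 and 314 CPM, a mean of 285 ± 41.0. Mir702 lay below Mir1224 in each library, by 1.20-fold and 1.18-fold, but their ranges over the libraries overlapped.

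The 2 transcription-start members did not overlap the 3 mirtron members in level. The lowest value of a transcription-start member, Mir320 at 1536 CPM in replicate 2, exceeded the highest of a mirtron member, Mir877 at 589 CPM in replicate 1. In the lists by position given below, means of detected genes overlapped, at 2.69 to 2336 CPM for starts and 3.14 to 549 CPM for mirtrons. Their medians went the other way, at 18.7 CPM for starts and 73.2 CPM for mirtrons. The start list holds neither Mir320 nor Mir484, while the mirtron list holds Mir877 and Mir1224. It takes in any microRNA near an annotated start, so these medians do not compare the 2 ways of making a precursor. Within libraries, Mir320 over Mir877 was 4.50 in replicate 1 and 3.02 in replicate 2, and Mir484 over Mir877 was 3.77 and 4.70. Mir877 over Mir1224 was 1.91 and 1.38. With 2 libraries no permutation test of these differences can pass 0.05, so they are given as values.

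**Figure D3:**
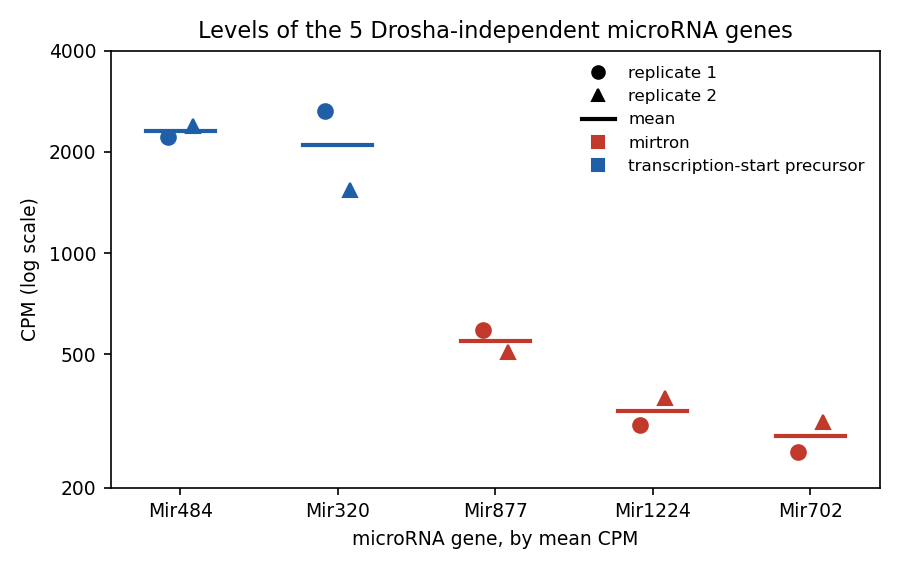
CPM on a log axis of each member in replicate 1 (circles) and replicate 2 (triangles), with the mean as a bar; mirtrons in red, transcription-start precursors in blue. Mir484 and Mir320 lie between 1536 and 2654 CPM, above all 3 mirtrons, which lie between 256 and 589 CPM, and Mir320 has the widest spread.

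Together the 5 genes held 0.603% of the sense counts in replicate 1 (exact Clopper-Pearson interval, 95.0% confidence, 0.596% to 0.609%) and 0.512% in replicate 2 (0.504% to 0.519%). The 3 mirtrons held 0.115% and 0.119%, a mean of 0.117% ± 0.00271 (SD, n = 2). Beneath this sum, Mir877 was lower in replicate 2, at 508 CPM against 589 CPM in replicate 1, while Mir1224 and Mir702 were higher there. Mir484 and Mir320 held 0.487% and 0.393%, a mean of 0.440% ± 0.0670. They outweighed the mirtrons 4.22-fold in replicate 1 and 3.29-fold in replicate 2. Mir484 and Mir320 made up 80.9% and 76.7% of the counts of the 5 genes.

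All 5 lay in the upper part of the 429 detected genes. Reads with several genomic matches count for no gene, so genes with near-identical copies can rank too low here. By mean CPM, Mir484 ranked 74 and Mir320 ranked 79 of all microRNA genes, at 26.2 and 23.9 times the median of detected genes, which was 87.8 CPM. Mir877 ranked 142 at 6.25 times that median, Mir1224 ranked 159 at 3.86 times and Mir702 ranked 169 at 3.25 times. Of the detected genes, 82.8% lay below Mir484, 66.9% below Mir877 and 60.6% below Mir702. Ranks within a library stayed close for Mir484, at 75 and 71, and moved most for Mir320, at 65 in replicate 1 and 89 in replicate 2.

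None of the nearest neighbours in level was a mirtron by its position in an intron. Mir484 stood between Mir760 at 2336 ± 128 CPM and Mir140 at 2263 ± 1672 CPM, and Mir320 between Mir369 of the Dlk1-Dio3 region at 2114 ± 453 CPM and Mir485 at 2043 ± 375 CPM (SD, n = 2 each). Mir877 stood between Mir339 at 593 ± 68.9 CPM and Mir500, in an intron of the chloride channel gene Clcn5, at 505 ± 163 CPM. Mir1224 stood between Mir3475 at 345 ± 72.3 CPM and Mir467e at 336 ± 14.2 CPM. Mir702 stood between Mir331 at 288 ± 18.5 CPM and Mirlet7a-1 at 280 ± 36.2 CPM. A neighbour whose reads match several copies, as those of Mirlet7a-1 can, is undercounted, so a like CPM need not mean a like level. Differences of mean log2 CPM to these neighbours, member minus neighbour over 2 libraries, ran from -0.11 for Mir877 against Mir339 to 0.25 for Mir484 against Mir140.

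**Figure D4:**
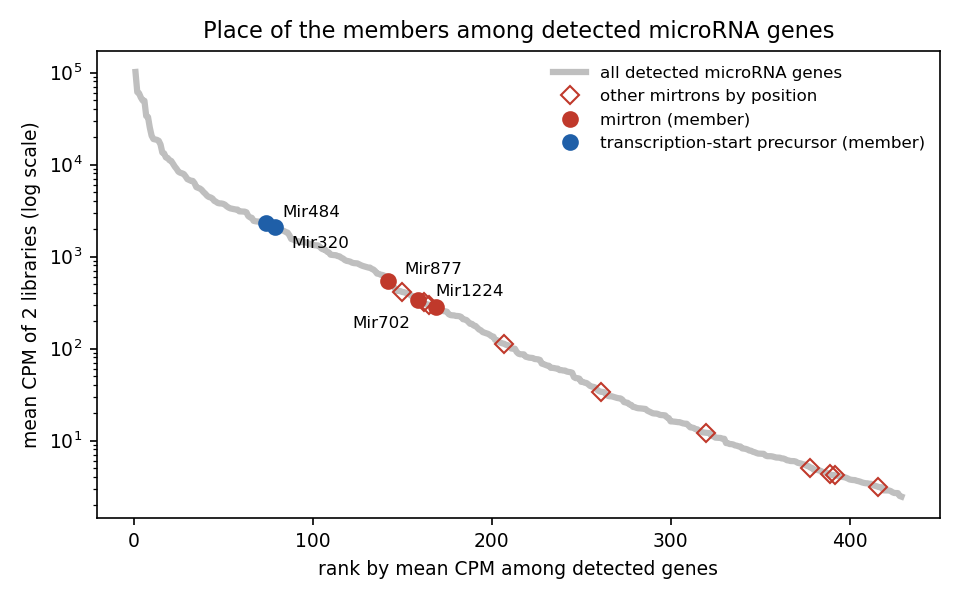
Mean CPM of 2 libraries on a log axis against rank among detected genes; grey is every detected gene, filled points are the members and open diamonds the other mirtrons by position. Mir484 and Mir320 lie at ranks 74 and 79 and the 3 mirtrons at 142 to 169, while the other mirtrons by position reach down to 3.14 CPM.

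The wider group of mirtrons was taken from the annotation, as microRNA genes whose ends both lie within 5 nt of the ends of a same-strand intron. This gave 23 genes, Mir877 and Mir1224 among them, and Mir702 fell outside because of the 9 nt in its upstream exon. Of the 23, 12 were detected (52.2%), beside 19.5% of all 2202 microRNA genes, and 3 had no count. These counts do not separate mature forms from other short fragments of the same introns. Their median over all 23 genes was 3.14 CPM and over the detected 12 it was 73.2 CPM, beside medians of 0.00 and 87.8 CPM for all microRNA genes. As a share of all sense counts the 23 held 0.196% and 0.223% in replicates 1 and 2. MicroRNAs inside a longer intron numbered 922, of which 26.8% were detected, with a median of 60.7 CPM among those detected.

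Mir877 was the most abundant of the 23 by mean. It was followed by Mir1981, in Marc2, a molybdenum enzyme gene, at 411 ± 6.44 CPM, Mir1224, Mir3102 at 318 ± 8.39 CPM and Mir7080, in the copine gene Cpne7, at 299 ± 153 CPM (SD, n = 2 each). Mir7080 had 191 and 407 CPM in replicates 1 and 2, and exceeded Mir1224 and Mir3102 in replicate 2 only. Mir3102, at 324 and 312 CPM, exceeded Mir1224, at 308 and 370 CPM, in replicate 1 only. Mir6944, in Dbn1, which encodes the dendritic spine protein drebrin, followed at 113 ± 36.1 CPM. The remaining 6 detected genes had means from 3.14 to 33.9 CPM. The letters GU at the start and AG at the end of the hairpin, searched on the transcribed strand, were present in 15 of 17 mirtrons by position with a RefSeq hairpin. They were present in 3.10% of all 968 hairpins matched, which include these 17. The list was chosen by intron ends, so splice-site letters at the hairpin ends follow from that choice. Mir702 and Mir484 lack this pair of ends in their annotated hairpins.

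No transcription-start member fell in the matching list for starts, 87 microRNA genes whose 5′ end lies within 50 nt of the start of another annotated transcript on the same strand. Of the 87, 19 were detected (21.8%, beside 19.5% of all), with a median of 18.7 CPM among these. They were led by Mir760 at 2336 ± 128 CPM, the gene just above Mir484 in level, and Mir125b-1 at 2129 ± 69.3 CPM, followed by Mir3072 at 298 ± 5.89 CPM, Mir206 at 68.6 ± 40.3 CPM and mmu-mir-3535 at 66.5 ± 25.1 CPM (SD, n = 2 each). An annotated start near a microRNA does not show that its precursor is made without Drosha.

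Among the 5 members, the libraries differed most for Mir320. After TMM scaling, the log2 ratio of replicate 2 to replicate 1 was -0.85 for Mir320 (exact interval for counting error, -0.90 to -0.81), and its binomial p was too small to be represented. The ratio was -0.27 for Mir877 (-0.36 to -0.19; two-sided exact binomial test, adjusted p = 1.99e-10). Mir702 was higher in replicate 2 at 0.23 (0.12 to 0.35; exact test, adjusted p = 0.000129), as was Mir1224 at 0.20 (0.10 to 0.31; exact test, adjusted p = 0.000373). Mir484 had the smallest ratio, 0.05 (0.01 to 0.09; exact test, adjusted p = 0.0433), which was also the median ratio of all detected genes.

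All 5 members thus differed beyond counting error, as did 61.3% of detected genes, and the share rises with depth. Of genes with 1000 to 10000 mean counts, the class of the 3 mirtrons, 86.8% differed, and of those with more, the class of Mir320 and Mir484, 97.4%. Higher in replicate 2 were 3 members, beside 28.7% of detected genes, and lower 2, beside 32.6%. The call for Mir484 was lost with DESeq2 size factors, at a log2 ratio of 0.04 (exact test, adjusted p = 0.122), and with a minimum of 1 count, at an adjusted p of 0.0609 by the same exact test. These tests compare 2 libraries of 1 group and cover counting error only. In absolute size the Mir320 ratio exceeded those of 82.3% of detected genes, that of Mir877 44.1% and that of Mir484 5.59%. Median absolute log2 ratios were 0.27 in the depth class of the mirtrons and 0.23 in that of Mir320 and Mir484.

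**Figure D5:**
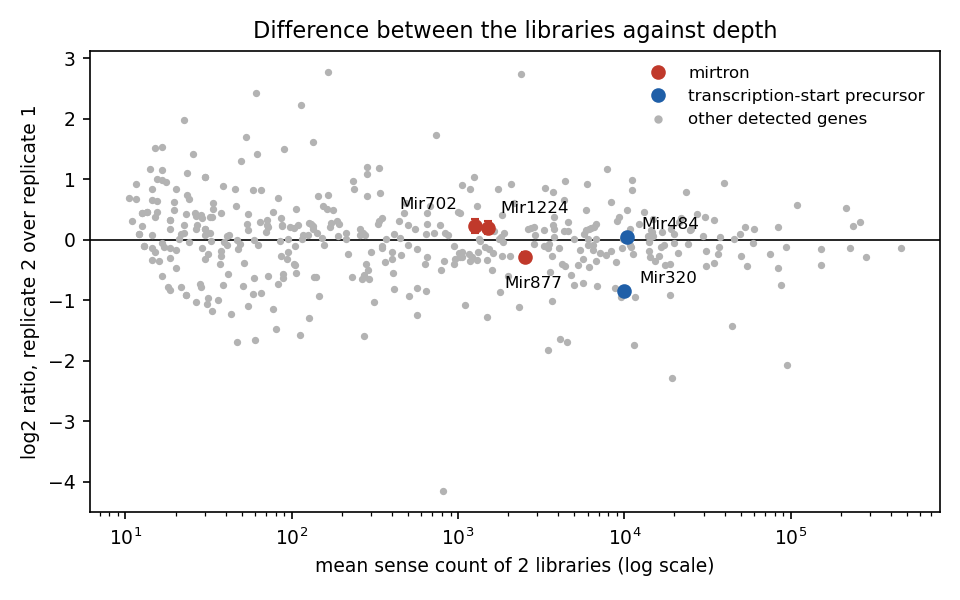
Log2 ratio of replicate 2 to replicate 1 after TMM scaling against the mean sense count of 2 libraries on a log axis; grey points are other detected genes, coloured points the members, and bars exact 95.0% intervals for counting error. Mir320 lies at -0.85, away from Mir484 at 0.05 at a like depth, and the 3 mirtrons lie between -0.27 and 0.23.

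The members had next to no antisense counts. Mir702 had 2 antisense counts in replicate 1 and 0 in replicate 2, and the other 4 members had 0 in both libraries, and a count of 0 leaves room for 0.548 and 0.842 CPM at most in replicates 1 and 2. This includes Mir484, although Marf1 is annotated on its opposite strand. Counts without regard to strand were the same as the sense counts for these 4 genes.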

How the data were processed

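MicroRNA-seq of small RNA below 30 nt was analysed in 2 libraries of 1 group. The authors deposited 1 file of raw, unnormalized read counts per library, for microRNA genes on mm10 with GENCODE M21, per the file notes. What aligned, counted and filtered the reads is not given in the sources used here. A file gives 1 value per gene, so 5p and 3p forms were not told apart, nor mature forms from other short fragments of the gene. The strand column with the larger total was taken as sense. Rows without a gene were left out; in replicates 1 and 2, 43.2% and 39.3% of 15058588 and 9483409 reads had several genomic matches and so count for no gene. Reads carry no molecular identifiers, so intervals and limits (3 counts for a 0) cover counting error only. Whether reads of the CAST allele align equally well was not tested. Nothing in the labels says how RNA of the 3 females of a set was combined.

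CPM used sense totals. Ratios used edgeR 4.0.16 TMM factors (0.979 and 1.02), a pseudocount of 0.5 counts and a two-sided exact binomial test (scipy 1.17.1) with Benjamini-Hochberg adjustment over 429 detected genes at 0.05. The test was tried on counts simulated with known changes, counting error only and library totals. That trial does not cover spread between libraries or the TMM scaling. Introns and transcript starts came from GENCODE M21. RefSeq sequences were matched by symbol and position for 968 of 1005 hairpins, 4 of the 5 members among them, and folded with RNAfold 2.7.2. Named genes are the members, their neighbours in mean CPM, the up to 5 leading genes of each list by position (Mir6944, the sixth, was added after its values were seen) and genes that share a member's seed. The members and lists were chosen with earlier results of these data known. Alternatives were DESeq2 1.42.0 size factors, library totals, count minimums of 1 and 100, strand-blind counts, all reads as denominator, other distances to introns and starts, and each library alone.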

Additional observations from a re-analysis of the deposited data

How the results depend on the processing

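No paired analysis was possible because the series holds 1 group. The order of Mir484 and Mir320 depended on the library: the log2 of Mir484 over Mir320 was 0.14 over both, 0.64 without replicate 1 and -0.26 without replicate 2. With all reads as denominator, the share of the 5 genes was 0.206%, that of the mirtrons 0.0434% and that of Mir320 and Mir484 0.162%, since most reads are on no microRNA gene. Counts without regard to strand gave the mirtrons 0.125%. Of the 23 mirtrons by position, 7 had at least 100 counts in each library. A tolerance of 10 nt gave 29 genes, Mir702 among them, with 14 detected. The start list held 25 genes at 10 nt and 140 at 100 nt, with 5 and 44 detected; at 50 nt, 45 of them passed a minimum of 1 count in each library and 6 a minimum of 100. The number of members that differed between the libraries was 4 or 5 under every alternative run, with Mir484 the exception where it was 4. Directions of the 5 ratios stayed the same in each alternative run. With 2 libraries, the spread of each level rests on 1 difference.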
